A study of Mus musculus with 12 samples.

Results

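The NADPH oxidases are membrane enzymes that move electrons from NADPH to oxygen and so make superoxide or hydrogen peroxide. Their subunits were followed by RNA sequencing in whole kidneys of mice with chronic kidney disease (CKD), with and without iron therapy. The 6 subunit genes Cybb, Cyba, Ncf1, Ncf4, Rac2 and Nox4 were chosen by name, and 5 of them matched 1 row each among the 22053 rows of the expression table. Cyba, which encodes p22phox, the membrane partner of both Cybb and Nox4, is not analysed here. All 5 genes passed the filter on low values, which left 13148 genes for testing, but Ncf1 and Ncf4 were not at 1 FPKM in all control mice and passed through the other groups.

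C57BL/6 mice, purchased as wild type, entered 3 groups of 4 mice each. CKD mice ate a diet with 0.2% adenine from 8 to 16 weeks of age, control mice ate the same diet without adenine, and CKD+Fe mice received the adenine diet together with iron dextran, a ferric hydroxide and dextran complex injected i.p. each week at 0.5 g/kg. Mice of the control and CKD groups were given phosphate-buffered saline i.p. each week instead. The control mice are numbered 012811, 012822, 042301 and 042310, the CKD mice 021320, 022301, 110310 and 120102, and the CKD+Fe mice 042702, 062910, 111710 and 122320, and the values of each group are listed in that order throughout. Each mouse gave 1 library, and nothing in the labels pairs the mice or names a batch. The comparisons asked what the adenine diet changed, what iron added in CKD, and how iron-treated CKD kidneys differed from control kidneys.

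The oxidase of phagocytes has a catalytic core of Cybb (gp91phox, also called NOX2) and p22phox in the membrane. It rests until the cytosolic organizer Ncf1 (p47phox), Ncf4 (p40phox), the GTPase Rac2 and other cytosolic partners join it, and the burst of superoxide that follows is known from macrophages and neutrophils. Nox4 needs p22phox but none of the cytosolic subunits, makes mainly hydrogen peroxide, and was first described as an oxidase of the kidney tubule.

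Expression is given in FPKM, fragments scaled to the length of the transcript and to the mapped reads of the mouse, which sets genes of different length on 1 scale. The sum of FPKM per mouse ran from 503438 to 707843, and the smallest steps between low values put the depth at about 20000000 to 29000000 reads per mouse. Control mouse 042301, CKD mouse 110310 and CKD+Fe mouse 042702 lay apart from their groups: 596, 806 and 442 genes in them were at least 2-fold away from the mean of the other mice of the group, against 42 to 225 genes in the other mice. Kidney markers were present in all mice. Of 8 such markers 3 were lower and none higher in CKD, beside 13.3% and 54.6% of all genes tested. Their summed FPKM was 68300 to 94100 in control, 3850 to 10500 in CKD and 4430 to 13500 in CKD+Fe. In control mice the sum was mostly Kap, an androgen-regulated protein of the proximal tubule, at 64400 to 89900 FPKM, and Kap was at 1030 to 7550 FPKM in CKD and 1990 to 9740 in CKD+Fe mice.

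On the GRCm38 build the genes lie on 4 chromosomes. Cybb spans chrX:9435252-9487771 on the minus strand, Ncf1 chr5:134220053-134229625 on the minus strand, Ncf4 chr15:78244801-78262580 on the plus strand, Rac2 chr15:78559169-78572783 on the minus strand and Nox4 chr7:87246096-87398710 on the plus strand. Exons of Ncf1 overlap those of Gtf2ird2, a gene on the opposite strand. The libraries kept the strand, but the strand setting used for the FPKM is not given in the sources used here. Rac2 is close in sequence to Rac1 and Rac3, so that some of their reads may have been shared.

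The RefSeq promoter table for GRCm38.p6 held 3 of the 5 genes, Cybb, Ncf1 and Nox4. The 100 bases before the start site are shown for these because the phagocyte subunits and Nox4 moved apart in CKD, and CG dinucleotides are in capitals, a marking chosen after the values were seen. The windows are chrX:9469325-9469424 for Cybb, chr5:134229626-134229725 for Ncf1, both on the minus strand, and chr7:87246549-87246648 for Nox4 on the plus strand. The Cybb start site, 9469324, lies inside the gene span, whose 5' end is at 9487771. The Nox4 start site, 87246649, lies inside a span that begins at 87246096. Cybb has 5 and Nox4 8 listed transcripts, and other starts were not searched.
Cybb: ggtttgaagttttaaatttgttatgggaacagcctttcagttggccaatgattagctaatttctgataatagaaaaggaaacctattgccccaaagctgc
Ncf1: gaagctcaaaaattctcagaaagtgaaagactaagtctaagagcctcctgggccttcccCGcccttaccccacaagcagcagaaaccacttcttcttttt
Nox4: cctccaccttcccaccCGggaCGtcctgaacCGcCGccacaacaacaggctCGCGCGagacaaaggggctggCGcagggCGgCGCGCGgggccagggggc

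These windows held 0, 1 and 12 CG dinucleotides in Cybb, Ncf1 and Nox4, and the 250 bases before the start held 1, 2 and 20. Over all 32851 promoters of the table the median was 6 CG in 250 bases, and 7.87%, 18.8% and 82.1% of the promoters had fewer than Cybb, Ncf1 and Nox4. The GC content of the same 250 bases was 34.0% in Cybb, 54.4% in Ncf1 and 67.2% in Nox4, against a median of 52.4%. On both strands of the window from 250 bases before to 50 bases after the start, the letters GAGGAA, of the kind that the myeloid factor PU.1 binds, were found in 28.3% of all promoters, the longer GAGGAAGT, which contains them, in 3.2%, and TATAAA in 13.6%. Among the 3 genes the sole match was GAGGAA on the antisense strand of Cybb, at bases 10 to 15 after the start, and the 250 bases before the start matched none of the 3 motifs in any of them. Only these exact letters were searched, so sites with other letters would have been missed, and no absence of PU.1 sites is read from this.

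In CKD the 4 phagocyte subunits rose together, and Nox4 did not pass the test. Expression of Cybb was 10.7-fold, of Ncf1 13.2-fold, of Ncf4 9.02-fold and of Rac2 6.03-fold that of control kidneys, as ratios of group means. In CKD against control 4 of the 5 genes were called higher and 0 lower, beside 54.6% and 13.3% of all genes tested, and the lowest CKD value exceeded the highest control value in these 4 genes, as it did in 44.6% of all genes. Ncf1 and Ncf4 entered the test through groups where they were higher. Of the other 3 genes 2 were called higher, too few to be read against these shares. The median log2 fold change of all genes was 0.50 on the deposited scale. Under a median-of-ratios rescaling that moved this median to 0.012, the log2 fold changes were 2.57 for Cybb, 2.53 for Ncf1, 2.20 for Ncf4 and 1.70 for Rac2, all called higher. Only 1.02%, 1.26%, 1.93% and 3.41% of all genes had a larger log2 fold change in CKD than Cybb, Ncf1, Ncf4 and Rac2 in turn.

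Cybb, the catalytic subunit, was measured at 2.17, 2.1, 3.53 and 4.41 FPKM in the control mice. It stood at 30.1, 42.5, 21.8 and 36.1 FPKM in the CKD mice and at 32.9, 17.4, 25.6 and 20.9 FPKM in the CKD+Fe mice. All 8 mice on adenine were above all 4 control mice, whereas CKD and CKD+Fe overlapped. Control kidneys averaged 3.05 ± 1.12 FPKM (SD, n = 4), CKD kidneys 32.6 ± 8.8 and CKD+Fe kidneys 24.2 ± 6.73. On the log2(FPKM + 1) scale Cybb rose by 3.05 in CKD (SE 0.25, 95% confidence interval 2.53 to 3.58, limma adjusted p = 4.55e-07). In whole tissue, more cells of a type and more RNA per cell cannot be told apart, and this holds for each gene described here.

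Ncf1, the organizer that carries the cytosolic subunits to the membrane, was at 0.787, 1.18, 1.64 and 1.39 FPKM in control kidneys. The CKD kidneys gave 10.6, 22.4, 17.4 and 15.6 FPKM, and the CKD+Fe kidneys 18.7, 11.6, 13.6 and 14.1 FPKM. The control mice were again the lowest 4 of the 12, with 62 to 109 reads each by estimate, and the ranges of the other groups crossed. With means of 1.25 ± 0.362 (SD, n = 4) for control, 16.5 ± 4.89 for CKD and 14.5 ± 3.03 FPKM for CKD+Fe, Ncf1 rose in CKD by 2.93 on the log2 scale (SE 0.21, interval 2.48 to 3.39, limma adjusted p = 1.95e-07). The overlapping gene Gtf2ird2 had means of 1.88, 3.35 and 3.46 FPKM in control, CKD and CKD+Fe and rose in CKD by 0.59 on the log2 scale (limma adjusted p = 0.0108). Its part in the Ncf1 values was not tested.

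Ncf4, which binds a membrane phosphoinositide, had 0.962, 1.64, 3.36 and 0.718 FPKM in the control mice. In the CKD mice it had 10.3, 24.0, 14.9 and 11.0 FPKM, and in the CKD+Fe mice 16.9, 11.4, 12.4 and 10.9 FPKM. The lowest control value rested on about 22 reads, and the highest came from mouse 042301, which lay apart, yet no control mouse reached any mouse on adenine. The means were 1.67 ± 1.19 (SD, n = 4), 15.1 ± 6.32 and 12.9 ± 2.73 FPKM in control, CKD and CKD+Fe. Ncf4 rose in CKD by 2.61 on the log2 scale (SE 0.30, interval 1.97 to 3.25, limma adjusted p = 7.07e-06), and by 2.86 without the 3 mice that lay apart (adjusted p = 6.41e-06).

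Rac2, the GTPase of blood cells that switches the complex on, was at 1.97, 2.49, 3.46 and 3.12 FPKM in control mice. Its levels were 10.8, 21.8, 22.6 and 11.5 FPKM in CKD mice and 20.7, 14.8, 15.4 and 11.9 FPKM in CKD+Fe mice. The CKD group split into a pair of mice near 11 FPKM and a pair near 22 FPKM, all above the control mice. With means of 2.76 ± 0.664 (SD, n = 4), 16.7 ± 6.41 and 15.7 ± 3.65 FPKM in control, CKD and CKD+Fe, Rac2 rose in CKD by 2.17 on the log2 scale (SE 0.25, interval 1.64 to 2.70, limma adjusted p = 7.07e-06). For each of these 4 genes the exact two-sided permutation test gave p = 0.0286, the smallest value that the 70 arrangements of 4 mice against 4 allow.

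Nox4 was the most abundant of the 5 genes in every control mouse, at 72.3, 76.7, 36.7 and 94.2 FPKM. It measured 55.7, 37.7, 23.4 and 66.7 FPKM in the CKD mice and 24.9, 67.7, 72.1 and 52.3 FPKM in the CKD+Fe mice. All 3 groups overlapped, and in each group the lowest value came from the mouse that lay apart. Nox4 averaged 70 ± 24.1 FPKM (SD, n = 4) without adenine, 45.9 ± 19.2 with CKD and 54.2 ± 21.3 with CKD and iron. The log2 difference between CKD and control was -0.62 (SE 0.38, interval -1.44 to 0.19, limma adjusted p = 0.158, exact two-sided permutation p = 0.2), and 90.5% of all genes had a larger log2 fold change. This result depended on single mice and on the scaling. Without control mouse 042301 the difference was -0.90 (adjusted p = 0.0458), without all 3 mice that lay apart it was -0.62 with a smaller error (SE 0.20, adjusted p = 0.0157), and after median-of-ratios rescaling it was -1.19 (adjusted p = 0.0186), whereas quantile normalization gave -0.64 (adjusted p = 0.232).

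**Figure D1:**
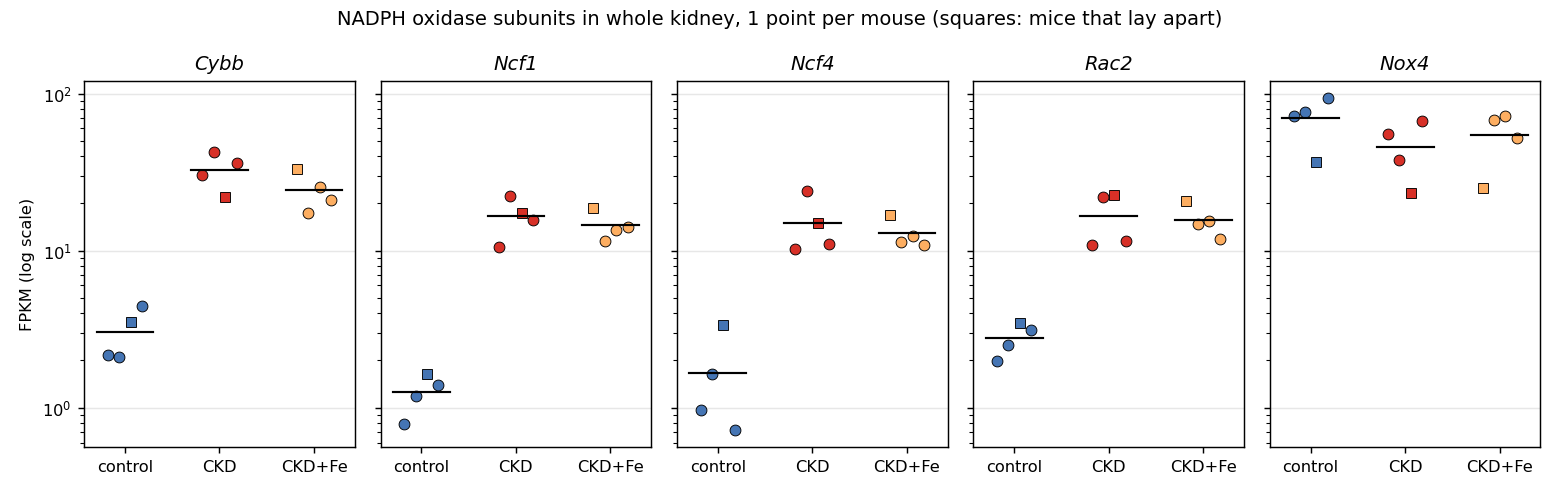
FPKM of the 5 oxidase genes on a log axis, with 1 point per mouse, a bar at the mean of each group of 4, and squares for the 3 mice that lay apart. Cybb, Ncf1, Ncf4 and Rac2 lie between 0.718 and 4.41 FPKM in control mice and between 10.3 and 42.5 FPKM in the 8 mice on adenine, while Nox4 overlaps in all groups and is lowest in the square of each.

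No oxidase gene passed the test for the addition of iron in CKD. In CKD+Fe against CKD 0 of the 5 genes were called, beside 0.00761% of all genes tested (1 gene) in either direction, and before adjustment 431 genes reached a p under 0.05 with a higher and 359 with a lower level. The log2 difference was -0.41 for Cybb (interval -0.94 to 0.11, limma adjusted p = 0.908, exact permutation p = 0.2), the largest in size among the 5 genes. It was -0.15 for Ncf1 (-0.61 to 0.30), -0.15 for Ncf4 (-0.79 to 0.49), -0.03 for Rac2 (-0.56 to 0.50) and 0.23 for Nox4 (-0.58 to 1.05), with adjusted p from 0.984 to 0.999. These intervals still hold falls and rises of moderate size, so that the groups cannot be called alike. In none of the 5 genes did CKD+Fe lie wholly above or wholly below CKD, as was seen in 1.35% and 1.09% of all genes. Without the 3 mice that lay apart, Cybb was lower with iron by a log2 difference of -0.74 (adjusted p = 0.118).

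Compared with control kidneys, the CKD+Fe kidneys showed the phagocyte subunits raised as the CKD kidneys did, and both comparisons share the same control mice. Cybb rose by 2.64 on the log2 scale (limma adjusted p = 2.27e-06), Ncf1 by 2.78 (5.01e-07), Ncf4 by 2.46 (1.61e-05) and Rac2 by 2.14 (1.12e-05). Again 4 of 5 genes were higher and 0 lower, beside 54.4% higher and 11.0% lower among all genes, and the lowest CKD+Fe value exceeded the highest control value in these 4 genes, as in 50.4% of all genes. Ncf1 and Ncf4 were again among them, so the filter limits this count in the same way. Nox4 differed by -0.39 (interval -1.21 to 0.43, adjusted p = 0.378). The order of the group means was thus control, CKD+Fe and CKD for each phagocyte subunit and CKD, CKD+Fe and control for Nox4, and the step between the groups on adenine was within the spread for all 5 genes.

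Nox4 and Cybb were also compared within each mouse. Nox4 expression divided by that of Cybb was 33.4, 36.5, 10.4 and 21.4 in the control mice. The same ratio was 1.85, 0.888, 1.07 and 1.85 in CKD and 0.756, 3.89, 2.81 and 2.51 in CKD+Fe. The lowest control mouse, 042301, was still above the highest mouse on adenine, and Cybb exceeded Nox4 in CKD mouse 022301 and in CKD+Fe mouse 042702. Of the 6 ratios between phagocyte subunits, 5 overlapped between control and each group on adenine. Ncf1 over Cybb ranged from 0.315 to 0.562 in control, 0.352 to 0.799 in CKD and 0.531 to 0.678 in CKD+Fe, and Rac2 over Cybb from 0.708 to 1.19, 0.318 to 1.03 and 0.57 to 0.85. Ncf1 over Rac2 was the exception, at 0.40, 0.474, 0.474 and 0.446 in control mice, 0.986, 1.03, 0.773 and 1.36 in CKD mice and 0.907, 0.781, 0.883 and 1.19 in CKD+Fe mice, so that every control mouse was the lower. These ratios, and those to marker genes given further on, were chosen after values had been seen and are given without a test.

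The phagocyte subunits did not all follow each other inside the groups. After the group means were taken away, the log2 values of Ncf1 correlated with those of Rac2 at a Pearson r of 0.81 and with those of Ncf4 at 0.737 over the 12 mice. Ncf4 and Rac2 gave 0.70, while Cybb gave 0.579 with Ncf1, 0.292 with Ncf4 and 0.298 with Rac2. Cybb was highest in CKD mouse 022301 and CKD+Fe mouse 042702, and CKD mouse 110310 combined the lowest Cybb of its group with the highest Rac2. These correlations describe 12 mice whose genes share a library and its depth.

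The genes most like each subunit were found by Pearson correlation of log2(FPKM + 1) among the tested genes, as a description with n = 12 mice and no test. Over all mice, where the difference between groups alone makes correlations high, the closest were Plxnb1 (Pearson r 0.996), Emp2 and Ifnar1 for Cybb, Fcgr3 (0.996) and Ifngr1 for Ncf1, Chrnb1 (0.992), Smarce1 and Cenpt for Ncf4, and Coro1a (0.996), P2ry6 and Pld4 for Rac2. Fcgr3 encodes a low-affinity IgG receptor and Ifngr1 a chain of the interferon gamma receptor. For Nox4 they were Slc30a9 (0.952), Prkaa2 and Dpyd. With group means removed, Mpeg1 (0.963), Emp2 and Zfand5 were closest to Cybb, C4b (0.963), Gmip and Trem2 to Ncf1, Telo2 (0.971), Atg16l2 and Stab1 to Ncf4, and H2-K1 (0.974), Lrrc25 and Psmb8 to Rac2. Mpeg1 encodes the macrophage perforin and Trem2 a macrophage lipid receptor. Most other genes of these lists, such as Plxnb1, Emp2, Chrnb1 and Telo2, are not described here, and no cell type is read from the lists. Adk, adenosine kinase (0.979), Dpyd and Wdr72 were closest to Nox4 within groups.

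Other genes of the oxidase pathway were counted in the same way. Of 27 listed genes with a row, 20 were tested. In CKD against control 15 were higher, 2 lower and 3 not called, beside 54.6% higher and 13.3% lower among all genes, and the median log2 fold change was 1.60 beside 0.50. The 2 lower genes were thus a share near that of all genes. Noxo1, Vav1, Tiam1, Dock2, Pik3cg and Sh3pxd2b, 6 of the 15, were not at 1 FPKM in all control mice and entered the test through groups where they were higher, while 9 of the other 14 genes were called higher. CKD+Fe against control also gave 15 higher and 2 lower, beside 54.4% and 11.0% of all genes, with a median of 1.41 beside 0.50. Both counts of 15 and both medians include these 6 genes, so they are not read as a result about the pathway. Between CKD+Fe and CKD none was called, beside 0.00761% of all genes, and the median was -0.06 beside -0.001.

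Among the other catalytic subunits, Nox1 did not exceed 0.224 FPKM in any mouse, Duox1 0.0764 and Duox2 0.0416, and Nox3 was listed at 0 in all 12. The activator Noxa1 and the maturation factors Duoxa1 and Duoxa2 were listed at 0 in all control mice and reached at most 0.184, 0.177 and 0.0776 FPKM elsewhere. These 7 genes were below the filter and were not tested. Of the 6 catalytic subunits listed, Cybb and Nox4 were above 1 FPKM in all mice.

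Noxo1, the organizer known from the NOX1 enzyme, went from 0.996 ± 0.48 to 10.9 ± 6.4 FPKM (SD, n = 4) in CKD, a log2 rise of 2.47 (limma adjusted p = 1.9e-05), although Nox1 itself and Noxa1 stayed near 0. The chaperone Cybc1, needed for the stability of the membrane core, rose from 8.99 ± 1.01 to 21.9 ± 3.82 FPKM, by 1.19 on the log2 scale (adjusted p = 4.52e-05).

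Of the other Rac proteins, Rac1, the ubiquitous form, was far more abundant than Rac2 and averaged 150.0 ± 11.4 FPKM (SD, n = 4) in the control, 185 ± 16.9 in the CKD and 164 ± 32.9 in the CKD+Fe group. Its log2 difference in CKD was 0.30 and did not pass the test (adjusted p = 0.0779), although its lowest CKD value, 164 FPKM, was above its highest control value, 163 FPKM. Rac3 rose from 2.55 ± 0.661 to 11.3 ± 1.07 FPKM, by 1.81 on the log2 scale (adjusted p = 3.45e-05). The exchange factors and carriers that load or hold Rac were higher as well. Vav1, an exchange factor of blood cells, rose by 2.43, Dock2 by 1.92, Prex1 by 1.61, Tiam1 by 1.14, Vav2 by 0.70 and the blood cell RhoGDI Arhgdib by 1.75. Tiam1 was the one gene called in CKD among these whose groups overlapped, through control mouse 042301 at 3.20 FPKM.

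The kinases that phosphorylate or recruit the cytosolic subunits were raised unequally. Prkcb (protein kinase C beta) rose by 2.49 on the log2 scale, Pik3cg (phosphoinositide 3-kinase gamma) by 1.59 and Prkcd (protein kinase C delta) by 1.19. The differences of Prkca (0.18, adjusted p = 0.311) and of the small GTPase Rap1a (0.07, adjusted p = 0.74) did not pass the test. Hvcn1, the proton channel that balances the charge moved by the oxidase, rose by 2.07, from 2.48 ± 0.429 to 13.8 ± 3.29 FPKM (SD, n = 4). The podosome organizers Sh3pxd2b and Sh3pxd2a, related to Ncf1, rose by 2.45 and 1.71. Sh3pxd2b had the smallest unadjusted p of the list in CKD+Fe against CKD, a log2 difference of -0.47 that did not pass the adjustment (adjusted p = 0.793).

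The 2 genes that fell in CKD, Poldip2 and P4hb, are both described as binding partners of NADPH oxidases. Poldip2, reported to bind p22phox and raise Nox4 activity, was at 83.5, 80.2, 80.4 and 71.2 FPKM in control, 51.4, 45.5, 59.3 and 45.5 in CKD and 58.0, 59.3, 56.9 and 55.3 in CKD+Fe. In CKD its log2 level fell by 0.64 (adjusted p = 0.000273), and every CKD mouse was below every control mouse, while CKD and CKD+Fe overlapped. P4hb, protein disulfide isomerase, fell by 0.42 (adjusted p = 0.00669), from 347 ± 20.8 to 259 ± 20.2 FPKM.

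**Figure D2:**
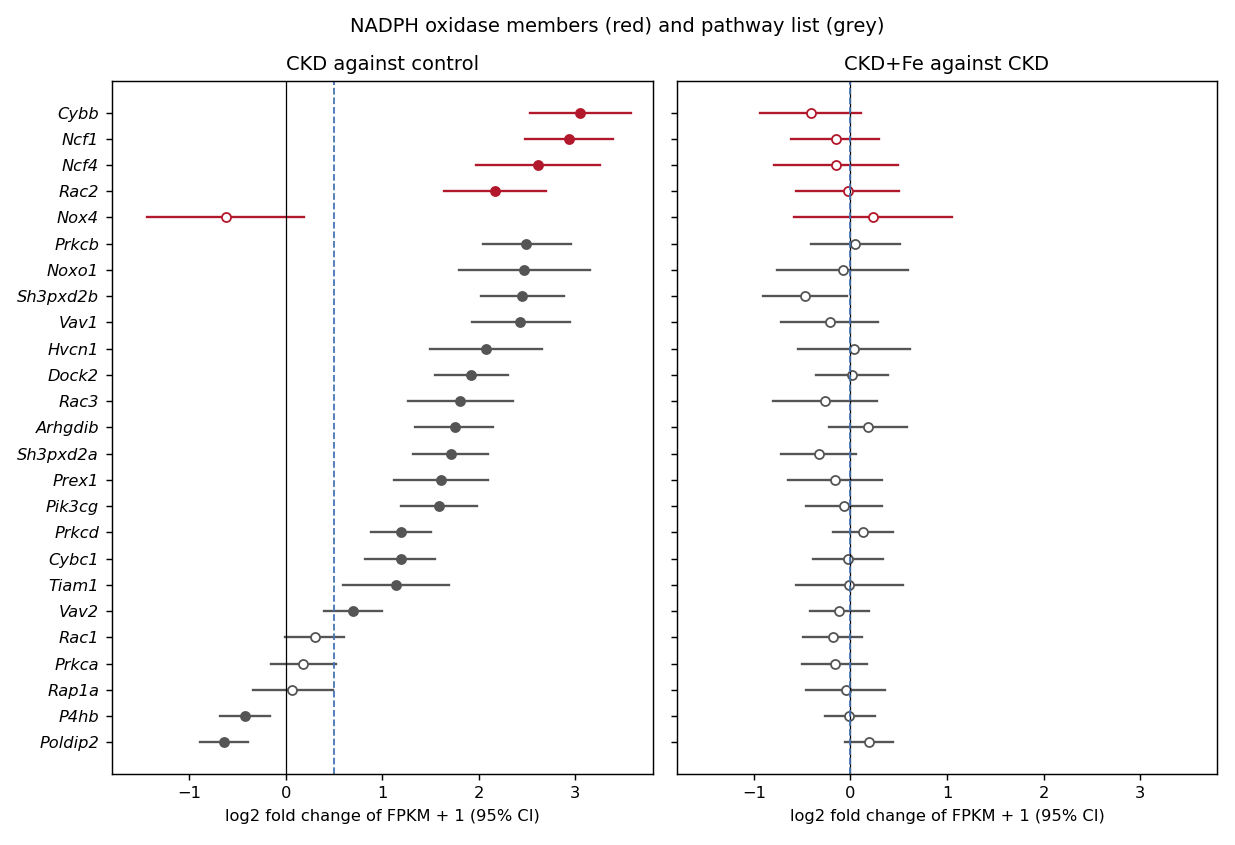
Log2 fold changes of FPKM + 1 with 95% confidence intervals for the 5 oxidase genes (red) and the 20 tested genes of the pathway list (grey), CKD against control on the left and CKD+Fe against CKD on the right. Filled points passed the limma test at an adjusted p of 0.05, and the dashed line is the median of all genes (0.50 and -0.001): 4 red and 15 grey points are filled to the right of 0 on the left, 2 grey ones to the left of 0, and none is filled on the right.

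Markers of leukocytes moved with the phagocyte subunits. The counts in CKD given here stand beside 54.6% higher and 13.3% lower among all genes tested. The lists of 3 and 4 markers are too short to be read against these shares. The macrophage marker Itgam had 2 rows in the expression table, and only the first was used. Of 10 macrophage markers 9 were higher in CKD and none lower (6 of the 7 that were at 1 FPKM in all control mice), and their summed FPKM ran from 119 to 229 in control, 1650 to 3350 in CKD and 1480 to 3440 in CKD+Fe mice, with none near 0. Neutrophil markers summed to 2.17 to 7.87, 62.1 to 231 and 52.3 to 147 FPKM in the same groups. The 5 of 10 neutrophil markers that were tested were all called higher in CKD, but none was at 1 FPKM in all control mice, so the filter admitted them through the groups on adenine and the count is no measure of its own. In control mice Mpo, Elane, Cxcr2, Ngp and Mmp8 were under 0.1 FPKM, whereas S100a8 was at 0.92 to 3.08, S100a9 at 0.274 to 2.81, Csf3r at 0.195 to 0.883, Ltf at 0.132 to 1.24 and Ly6g at 0.0552 to 0.508 FPKM. Mpo was under 0.1 FPKM in all CKD mice as well. Of the 3 markers of all leukocytes, 3 were higher, at 19.6 to 30.6, 115 to 210 and 110 to 229 FPKM. Of 7 T and B cell markers 4 were tested, again admitted through the groups on adenine, and 3 were called higher in CKD, with sums of 3.06 to 6.04, 3.87 to 18.7 and 12.5 to 24.2 FPKM. The 6 fibroblast markers were all higher, at 87.2 to 123, 454 to 860 and 387 to 546 FPKM, and of 4 endothelial markers 1 was lower, at 81.6 to 165, 72.1 to 101 and 73.1 to 122 FPKM. The part of these cells in the expression of the oxidase genes was not tested.

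Set against single marker genes, the phagocyte subunits gave ratios that depended on the marker. Cybb over Adgre1, the gene of the macrophage antigen F4/80, had a mean ratio of 1.43 ± 0.427 (SD, n = 4) for control, 1.27 ± 0.487 for CKD and 1.07 ± 0.193 for CKD+Fe mice, and the groups overlapped. Over Ptprc, which encodes the leukocyte antigen CD45, Cybb was 1.34 ± 0.363, 1.98 ± 0.439 and 1.59 ± 0.38, again overlapping. Over Csf1r, the receptor for macrophage colony-stimulating factor, it was 0.166 ± 0.0616, 0.541 ± 0.165 and 0.401 ± 0.0392, and the highest control value of 0.25 was below the lowest CKD value of 0.315. Ncf1 over Csf1r was likewise separated, at 0.0413 to 0.0805 in control and 0.238 to 0.281 in CKD, whereas Ncf1 over Adgre1 overlapped at 0.388 to 0.952 and 0.369 to 0.86. Rac2 over Adgre1 was lower on average, at 0.883 to 2.01 in control, 0.375 to 0.928 in CKD and 0.573 to 0.778 in CKD+Fe. It overlapped control in CKD but not in CKD+Fe. Over Csf1r, Rac2 was separated upward as Cybb and Ncf1 were, at 0.103 to 0.177 in control and 0.207 to 0.326 in CKD. Ncf4 over Csf1r was so too, at 0.0407 to 0.165 and 0.198 to 0.295. Adgre1 itself rose in CKD by 3.12 on the log2 scale (adjusted p = 2.59e-07), Ptprc by 2.41 (2.37e-06) and Csf1r by 1.68 (4.77e-06).

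Nox4 was set beside markers of the proximal tubule. Of 8 such markers 7 were lower in CKD and none higher, beside 13.3% and 54.6% of all genes tested. Their summed FPKM was 2650 to 4080 in control, 327 to 706 in CKD and 501 to 1120 in CKD+Fe. Lrp2, the endocytic receptor megalin, dropped by 1.64 in CKD on a log2 scale (limma adjusted p = 0.000545), at 90.2, 93.0, 56.8 and 129 FPKM in control and 42.4, 19.4, 21.1 and 33.7 FPKM in CKD mice. Nox4 divided by Lrp2 was 0.801, 0.825, 0.647 and 0.73 in control, 1.31, 1.94, 1.11 and 1.98 in CKD and 1.12, 1.47, 1.18 and 1.42 in CKD+Fe mice. No control mouse reached any mouse on adenine in this ratio. Nox4 over Slc34a1, the phosphate transporter of the proximal tubule, was separated in the same direction, at 0.0354 to 0.0524 in control, 0.0647 to 0.262 in CKD and 0.105 to 0.158 in CKD+Fe. The ratio depended on the marker. Of the 8 markers, 5 gave a ratio wholly above control in CKD, and Slc5a2, Cubn and Slc5a12 gave overlapping ratios. In CKD+Fe the ratios to Slc5a2 and Cubn were wholly above control as well, and only that to Slc5a12 overlapped. Nox4 over Cubn, the megalin partner cubilin, was at 1.75 to 2.46 in control, 2.34 to 4.07 in CKD and 2.64 to 3.23 in CKD+Fe. Nox4 over Slc5a12, a lactate transporter that was not called in CKD (means of 36.7 FPKM in control and 36.6 in CKD), went the other way, at 1.39 to 2.45 in control, 1.12 to 1.42 in CKD and 1.06 to 1.72 in CKD+Fe. After removal of group means Nox4 correlated with Lrp2 at a Pearson r of 0.907 and with Slc34a1 at 0.495 over the 12 mice, given as a description. The part of tubule content in the Nox4 values was not tested.

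**Figure D3:**
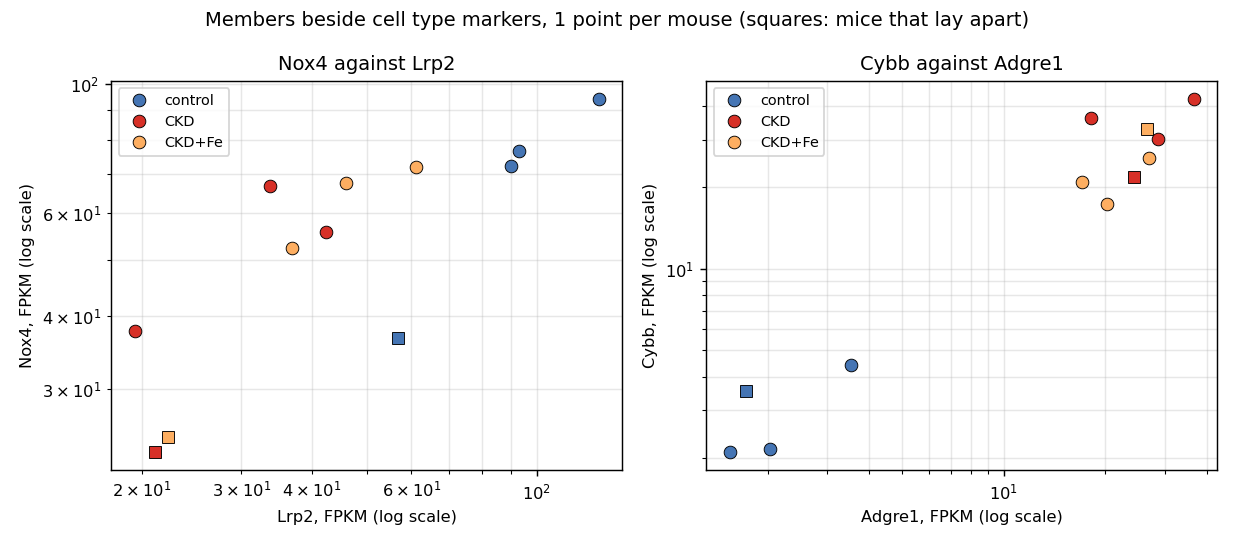
FPKM of Nox4 against Lrp2 (left) and of Cybb against Adgre1 (right) on log axes, with 1 point per mouse and squares for the 3 mice that lay apart. On the left Lrp2 is at 56.8 to 129 FPKM in control, 19.4 to 42.4 in CKD and 22.2 to 61.1 in CKD+Fe mice while Nox4 overlaps in all groups, and on the right the 4 control mice lie apart from the 8 mice on adenine on both axes.

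**Figure D4:**
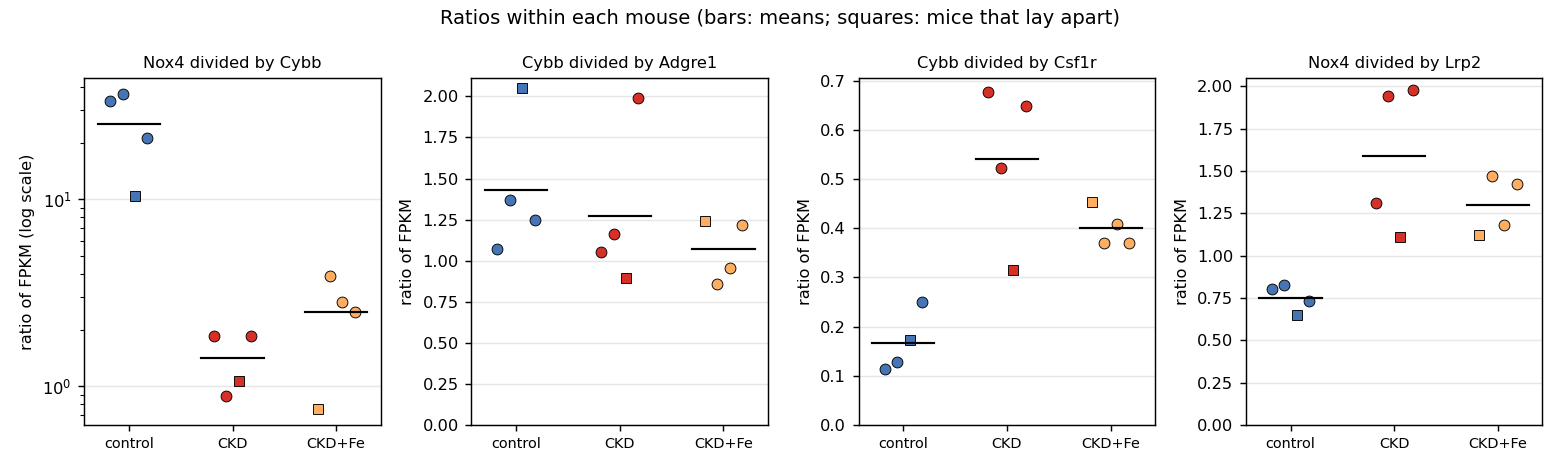
Ratios of FPKM within each mouse, with a bar at each group mean of 4 mice: Nox4 divided by Cybb (log axis), Cybb divided by Adgre1, Cybb divided by Csf1r and Nox4 divided by Lrp2 (linear axes from 0), with squares for the 3 mice that lay apart. Nox4 over Cybb is at least 10.4 in control mice and at most 3.89 in mice on adenine, Cybb over Adgre1 overlaps, and Cybb over Csf1r and Nox4 over Lrp2 are lowest in the 4 control mice.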

How the data were processed

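Total RNA of whole kidneys was sequenced by the authors from stranded mRNA libraries with single-end 50 cycles on a HiSeq4000, and 12 libraries were analysed. Per the labels, bcl2fastq 2.19, STAR 2.5.2, Cufflinks 2.1.1 and the GRCm38 build were used. The annotation release is not given in the sources used here. The authors deposited FPKM per gene and mouse and tested counts with DESeq2. FPKM are not counts, so no count test was run. Of the values, 30 marked as failed were set to missing. FPKM are relative to the total of a mouse, so that a change in total RNA was not measured.

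Genes that reached 1 FPKM in 4 or more mice entered limma 3.58.1 (R 4.3.3) as log2(FPKM + 1), with all 12 mice in 1 fit, a variance trend, two-sided tests and Benjamini-Hochberg adjustment over 13148 genes, at a threshold of 0.05. Fold changes on this scale understate those of low genes. Single genes were also tested by exact permutation over samples. Depth was estimated from the FPKM worth of 1 read in 3955 genes with 1 listed transcript of at least 1500 bases, less 180 bases. The scripts were tested on simulated data.

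The oxidase genes, the pathway list and the marker lists were chosen with earlier results of these data known. Named genes are the 6 members, the listed pathway genes and, per member, the 3 genes with the highest correlation over all mice and the 3 within groups. A gene of these lists is not reported here and stays out of the pathway counts. The alternatives were other pseudocounts, filters, scalings, weights and sets of mice.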

Additional observations from a re-analysis of the deposited data

Results flagged for a closer look

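Among 75 groups of 4 mice tested over the oxidase genes and the tested pathway genes, 4 had a highest mouse whose gap to the next exceeded the critical value of Dixon's test, and chance flags about 1 in 20 groups. All 4 came from mice that lay apart from their groups across many genes, and none concerned the 5 oxidase genes themselves. Rac1 was at 214 FPKM in CKD+Fe mouse 042702 and at 146 to 149 in the other mice of the group. Prkcb was at 24.0 FPKM in the same mouse and at 12.1 to 14.0 in the others. Tiam1 was at 6.20 FPKM in that mouse, with 3.51 to 3.82 in the others, and at 3.20 FPKM in control mouse 042301, with 0.911 to 1.10 in the other control mice.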

How the results depend on the processing

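Cybb, Ncf1, Ncf4 and Rac2 stayed called higher against control in each of 17 alternatives per comparison, 8 of which left out 1 mouse, with log2 fold changes in CKD of 2.46 to 3.40, 2.20 to 3.61, 1.87 to 3.24 and 1.43 to 2.5 over the other 9. The number of oxidase genes lower in CKD went from 0 to 1, Nox4, with median-of-ratios rescaling (-1.19), without the 3 mice that lay apart (-0.623) and without control mouse 042301 (range over mice left out 0 to 1 genes, and -0.903 to -0.345 for Nox4). In CKD+Fe against CKD no oxidase gene was called in any alternative. There the direction turned for Rac2 with array weights (0.0887), and on leaving out mice for Ncf1 (-0.335 to 0.00382, without 022301), Ncf4 (-0.294 to 0.089, without 022301), Rac2 (-0.202 to 0.133, without 022301, 110310 or 122320) and Nox4 (-0.0457 to 0.563, without 110310). Pathway genes lower in CKD+Fe than in control went from 2 to 5 with median-of-ratios rescaling. Over all genes, 7181 were higher and 1748 lower in CKD as deposited, 3781 and 3856 with that rescaling, and 3060 and 3363 with quantile normalization. In CKD+Fe against CKD, 1 gene was called in all, against 79 higher and 56 lower with array weights and 51 and 32 without the 3 mice. For CKD+Fe against control 7159 and 1442 genes became 3636 and 3618 with the rescaling and 2605 and 2967 with quantile normalization. The cause of these shifts was not tested. No paired analysis was possible because the groups share no replicate numbers. Depth limited the control values of Ncf1 and Ncf4, which rested on about 22 to 109 reads per mouse.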
